A study of Mus musculus with 12 samples.

Results

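The Integrator complex was followed through 9 of its subunit genes, Ints1, Ints2, Ints3, Ints5, Ints6, Ints8, Ints9, Ints10 and Ints12, in the brains of newborn wildtype and KIS-ko mice. The members were chosen by gene symbol among the main probesets of the exon array, which gave 9 of the 17550 gene symbols of the table and 239 of its 221417 main probesets with a symbol. Ints6 entered because it was among the most reduced genes in the KIS-ko brains. Its own difference between the genotypes and its gap to other genes are therefore descriptions and were not tested. The other 8 subunits were taken because they belong to the same complex.

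Integrator is a large nuclear assembly that travels with RNA polymerase II. Its endonuclease cuts the 3′ ends of small nuclear RNAs, the RNA components of the spliceosome, and also ends transcription early at many protein-coding and enhancer loci. A phosphatase arm carries PP2A, which removes phosphates from the polymerase and from elongation factors. In the nervous system the complex is known for a part in neuronal differentiation and migration, and inherited defects of single subunits disturb brain development.

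The wildtype animals (KIS +/+) and the KIS-ko animals (KIS -/-), which lack the kinase KIS encoded by Uhmk1, were newborn females of a C57BL6/N background. Each of 6 litters gave 1 wildtype and 1 KIS-ko brain, and total RNA of each whole brain was hybridized to 1 Affymetrix Mouse Exon 1.0 ST array, 12 arrays in all. The deletion was constitutive, and a whole brain mixes all of its cell types, so that fewer cells of a type and less RNA per cell cannot be told apart. On this array a probeset is a group of at most 4 probes that usually lies in 1 exon, and its signal was put on a log2 scale after adding 16. The gene value used below is the mean of log2(signal + 16) over the probesets of a gene.

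Uhmk1 had a gene value between 10.89 and 11.07 in the 6 wildtype brains and between 8.62 and 8.98 in the 6 KIS-ko brains, a difference of -2.11 ± 0.068 (SE, limma with the litter as a block, adjusted p = 2.91e-07). The genotype labels and the level of the targeted gene therefore went together in all 6 litters. It was also the single gene of 17279 past the adjusted threshold of 0.05, a share of 0.00579%. The median signal of an array lay between 460 and 526, and the median gene differed between littermates by -0.046, -0.086, 0.0023, 0.071, -0.052 and -0.11 in litters 1 to 6, so that litter 4 ran upwards and litter 6 downwards over the array as a whole. In the mean over litters 69.8% of genes were lower in KIS-ko, with a median difference of -0.036 on the log2 scale. All 7 neuronal markers measured, such as Tubb3 and Snap25, had a median probeset signal above 713, the level that 5% of the intron controls exceed and that is taken here as the limit of a bright probeset.

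The promoters of 3 subunits are shown first, because they stand for the range of behaviour described below: Ints6 and Ints2 with the most negative differences and Ints1 with one near 0 in the values as deposited. They are the 250 bases before the start of the gene, from RefSeq on GRCm38.p6, 5′ to 3′ on the strand of the gene, and 5 of the 9 members had an entry. Capitals mark matches on either strand to any of 5 motifs. These were the CCAAT box with the letters CCAAT, the GC box with GGGCGG, the ETS core with CCGGAAG, the TATA box with TATAAA and the CRE with TGACGTCA, and no match overlapped another in these windows.
Ints6, chr14:62761113-62761362, minus strand: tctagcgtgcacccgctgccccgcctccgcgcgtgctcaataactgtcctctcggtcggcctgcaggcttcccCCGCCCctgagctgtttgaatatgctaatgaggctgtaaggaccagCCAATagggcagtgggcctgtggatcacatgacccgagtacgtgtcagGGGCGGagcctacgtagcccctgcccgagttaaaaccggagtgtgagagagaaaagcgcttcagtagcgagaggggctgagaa
Ints2, chr11:86257595-86257844, minus strand: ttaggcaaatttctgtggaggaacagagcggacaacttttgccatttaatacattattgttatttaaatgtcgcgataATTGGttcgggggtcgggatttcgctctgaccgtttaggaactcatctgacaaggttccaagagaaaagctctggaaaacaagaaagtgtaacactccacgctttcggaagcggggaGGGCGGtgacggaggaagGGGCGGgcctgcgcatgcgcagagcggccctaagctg
Ints1, chr5:139775679-139775928, minus strand: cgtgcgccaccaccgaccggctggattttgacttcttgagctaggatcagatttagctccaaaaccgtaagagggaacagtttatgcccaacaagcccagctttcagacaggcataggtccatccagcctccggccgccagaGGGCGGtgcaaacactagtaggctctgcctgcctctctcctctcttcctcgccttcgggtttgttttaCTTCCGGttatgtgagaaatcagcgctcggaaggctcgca
The Ints6 window held 1 CCAAT box and 2 GC boxes, the Ints2 window also 1 and 2, and the Ints1 window 1 GC box and 1 ETS core. Among 32851 mouse promoters of the same length, 33.8% held a CCAAT box, 32.7% a GC box and 6.91% the ETS core. None of the 3 held the TATA box or the CRE, which occurred in 12.4% and 1.55% of promoters. The letters G and C made up 60.4% of the Ints6 window, 50.4% of the Ints2 window and 55.2% of the Ints1 window, against a median of 52.4%. These matches are letters in a window and were not measured as binding.

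Ints6 encodes a subunit of the phosphatase arm that holds PP2A on Integrator, and its protein is also found with the DNA repair complex SOSS. The array table places its 25 main probesets on chromosome 14 from 63295326 to 63379590 on the minus strand, in a build that the sources used here do not name. The gene value in the wildtype brains of litters 1 to 6 was 9.22, 9.23, 9.21, 9.18, 9.07 and 9.32. In their KIS-ko littermates it was 8.78, 8.97, 8.72, 9.24, 9.03 and 8.98. The KIS-ko brains of litters 1, 2, 3, 5 and 6 lay below every wildtype brain, that of litter 5 by little and close to its own littermate. The groups overlapped through litter 4 alone, whose KIS-ko brain was above 5 of the 6 wildtype brains.

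The littermate differences of Ints6 were -0.45, -0.26, -0.49, 0.055, -0.040 and -0.34 in litters 1 to 6, on the log2 scale. Their mean was -0.25 ± 0.22 (SD, n = 6 pairs), which put the KIS-ko level at 83.8% of wildtype on the scale of signal + 16. This was the 89th most negative difference of 17279 genes. When settings or litters were varied, its rank ran from 32 of 11425 with bright probesets alone to 288 of 17243 without litter 3. By the measure used in the study, the mean of the 6 ratios per probeset weighted over probesets by the inverse of their relative SD, the fold change was 0.854 ± 0.116 (SD over litters, n = 6). After subtraction of the median gene of each litter the difference was -0.22 ± 0.20 (SD, n = 6 pairs). It was again below 0 in 5 of 6 litters, with litter 4 now lower and litter 5 now higher.

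**Figure D1:**
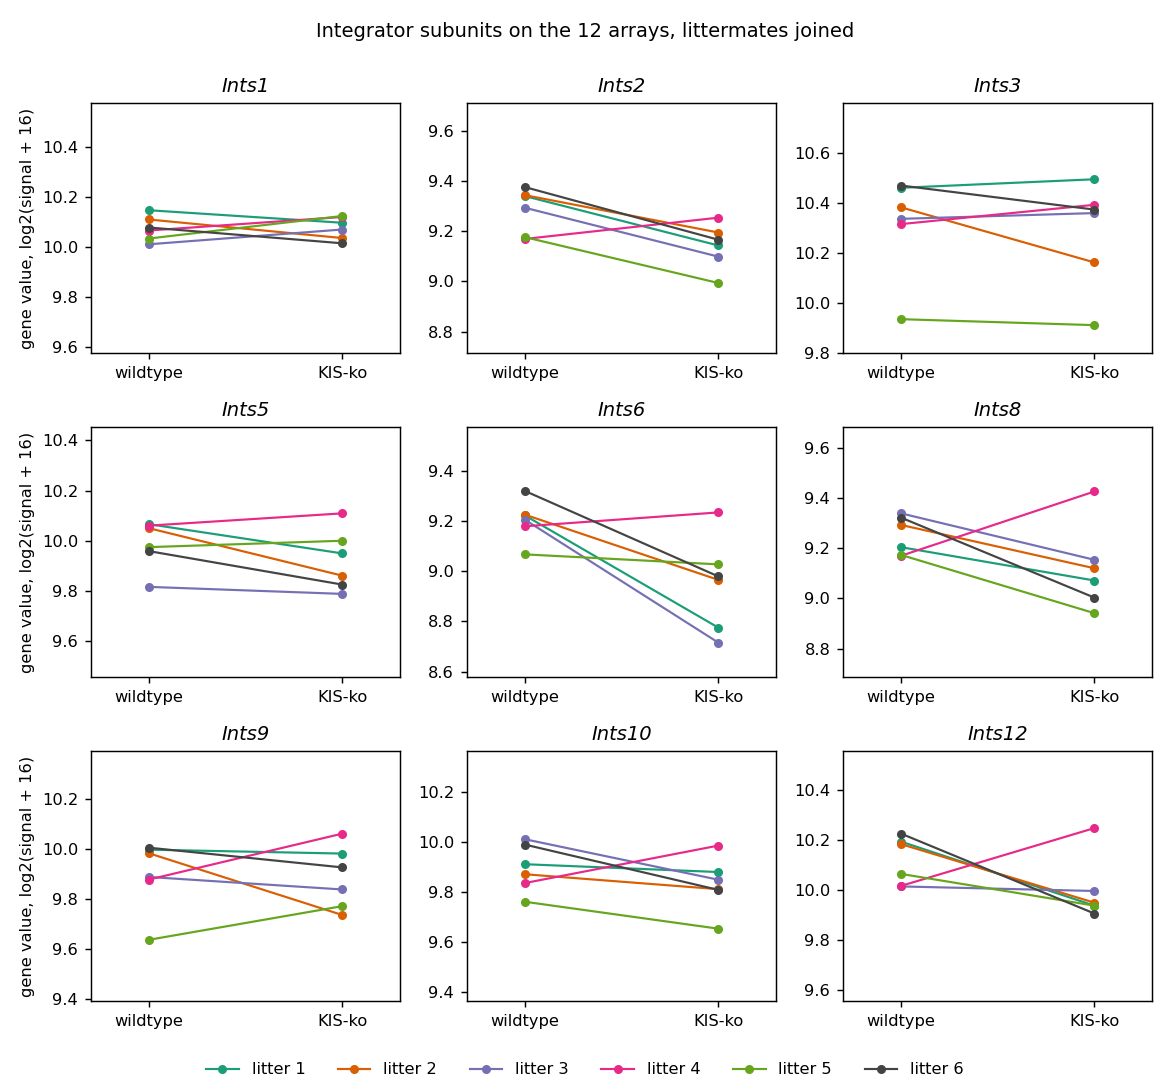
Gene value of each of the 9 Integrator subunits, as the mean of log2(signal + 16) over its probesets, in the wildtype and KIS-ko brain of each litter; a line joins littermates and every panel spans the same range of 1 log2 unit. For Ints6 the lines of litters 1, 2, 3 and 6 drop from between 9.21 and 9.32 to between 8.72 and 8.98, while those of litters 4 and 5 are nearly level.

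The other members of the phosphatase arm and its neighbours are Ints5 and Ints8, which form the shoulder on which Ints6 sits, and Ints2, a scaffold subunit. Ints8 lay between 9.17 and 9.34, median 9.25, in wildtype and between 8.94 and 9.43, median 9.10, in KIS-ko. Its littermate differences were -0.13, -0.17, -0.19, 0.26, -0.23 and -0.32, so that 5 litters were lower and litter 4 was higher. The mean difference was -0.13 ± 0.071 (SE, limma, adjusted p = 0.685), and the groups overlapped.

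Ints2 lay between 9.17 and 9.38, median 9.32, in wildtype and between 8.99 and 9.25, median 9.16, in KIS-ko. Its littermate differences, -0.20, -0.15, -0.20, 0.085, -0.18 and -0.21, lay between -0.21 and -0.15 in 5 litters and above 0 in litter 4 alone. The mean of -0.14 ± 0.053 (SE, limma) had an unadjusted p of 0.0232 and an adjusted p of 0.685, so that it did not pass over all genes. Ints2 was the single one of the 8 other subunits at an unadjusted p under 0.05 in the lower direction, as were 4.34% of all genes, and none was in the higher direction, as were 1.82%. With arrays centred on their medians this split over all genes turned, from 750 lower and 315 higher to 295 lower and 814 higher, and after a second quantile normalization it was 430 lower and 790 higher, while Ints2 stayed lower at -0.086 and -0.094, with an unadjusted p under 0.05 in both. The unadjusted p of Ints2 was above 0.05 when litter 1, 3, 5 or 6 was left out, with a difference of -0.13 in each case. Relative to the median gene its difference was -0.10 ± 0.074 (SD, n = 6 pairs). Ints5 lay between 9.82 and 10.07, median 10.01, in wildtype and between 9.79 and 10.11, median 9.90, in KIS-ko. Its difference was -0.066 ± 0.050 (SE, limma, adjusted p = 0.693), with 4 of 6 litters lower, and -0.041 without litter 2. It carries 8 probesets, of which 1, marked in the table as not matching 1 place, stood at -0.32, and the median over probesets gave -0.015, the 5 probesets of 1 place -0.032 and a relative SD limit of 0.2 gave -0.030.

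Ints1 is the largest subunit and forms the backbone of the complex together with Ints2 and Ints7. In the values as deposited its difference was the closest to 0 of the 9. Its gene values spanned 10.01 to 10.15, median 10.07, in wildtype and 10.02 to 10.12, median 10.08, in KIS-ko, over 54 probesets. The difference was 0.0027 ± 0.047 (SE, limma, adjusted p = 0.987), with 3 litters lower and 3 higher. The littermate differences of Ints1 were small in every litter, from -0.074 in litter 2 to 0.090 in litter 5. After subtraction of the median gene of each litter the difference was 0.040 ± 0.058 (SD, n = 6 pairs), and 2 litters were lower, and with arrays centred on their medians it was 0.058.

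Ints9 is the inactive partner of the endonuclease and is needed to hold it. It lay between 9.64 and 10.00, median 9.94, in wildtype and between 9.74 and 10.06, median 9.88, in KIS-ko. The difference was -0.012 ± 0.061 (SE, limma, adjusted p = 0.945). Litter 2 was lower by more than the others, at -0.25, and litters 4 and 5 were higher, at 0.18 and 0.13. Ints9 also lies on chromosome 14, in the array table at 65569110 to 65658632, beyond the Ints6 gene.

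Ints10 belongs to the arm that contacts nucleic acid with Ints13 and Ints14. It lay between 9.76 and 10.01, median 9.89, in wildtype and between 9.65 and 9.99, median 9.83, in KIS-ko, with a difference of -0.065 ± 0.054 (SE, limma, adjusted p = 0.705) and 5 of 6 litters lower. It was -0.042 without litter 6 and -0.11 without litter 4. The littermate differences of Ints10 ran from -0.18 in litter 6 to 0.15 in litter 4, and relative to the median gene 3 litters were lower. Its 11 bright probesets had a median difference of -0.020 and its dimmer ones of -0.13, and from the bright ones alone its difference was -0.017 ± 0.045 (SE, limma, adjusted p = 0.895). Ints12, a small subunit with a PHD finger, lay between 10.01 and 10.22, median 10.12, in wildtype. In KIS-ko 5 brains lay between 9.90 and 9.99 and litter 4 stood at 10.25, above every wildtype brain. The littermate differences of Ints12 were -0.26, -0.23, -0.018, 0.23, -0.13 and -0.32, so that litter 3, in which Ints6 was most reduced, was nearly level for Ints12. The mean difference was -0.12 ± 0.071 (SE, limma, adjusted p = 0.685), with -0.081 without litter 6 and -0.19 without litter 4, and the groups overlapped through litter 4.

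Ints3 is the subunit shared with SOSS, where it binds single-strand DNA binding proteins. Its gene value spanned 9.94 to 10.47, median 10.36, in wildtype and 9.91 to 10.49, median 10.37, in KIS-ko. Both brains of litter 5 were the low ones, at 9.94 and 9.91, and the other 10 brains lay at 10.16 or above. The difference between the genotypes was -0.034 ± 0.052 (SE, limma, adjusted p = 0.809), with 3 litters lower, which is less than the gap between litter 5 and the others.

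Side by side, 7 of the 8 other subunits were lower in KIS-ko, with a median difference of -0.065, beside 69.8% of all genes and their median of -0.036. Relative to the median gene, 5 of these 8 were lower, with a median of -0.029. From bright probesets alone the order against all genes turned, with a median of -0.020 for the 9 subunits, Ints6 included, and -0.033 for all genes, and 4 of the 9 below the median gene. Ints5 then stood at -0.017 and Ints12 at -0.078, while Ints2 and Ints8 stood at -0.12 and -0.10. With arrays centred on their medians Ints8, Ints12, Ints5 and Ints10 stood at -0.075, -0.065, -0.0098 and -0.0095. In the values as deposited, Ints2, Ints8, Ints10 and Ints12 were lower in at least 5 of the 6 litters, which held for 22.5% of all genes. None of the 8 was lower in all 6 litters, as 1.6% of all genes were, and none of the 9 had its KIS-ko brains all below its wildtype brains, as 0.122% of all genes did. By the study's fold change, Ints2 at 0.916 ± 0.064 and Ints12 at 0.938 ± 0.115 were below 0.94, as 8.84% of genes were, and Ints8 followed at 0.946 ± 0.098 (SD over litters, n = 6). With arrays centred on their medians neither Ints2 at 0.944 nor Ints12 at 0.971 was below 0.94, nor was either after a second quantile normalization, with Ints12 at 0.959. The ratio of the genotype means put Ints8 at 0.936, and Ints12 was at 0.951, 0.954 and 0.966 without litters 1, 2 and 6. The other 5 lay between 0.984 for Ints10 and 1.01 for Ints1 and Ints9.

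**Figure D2:**
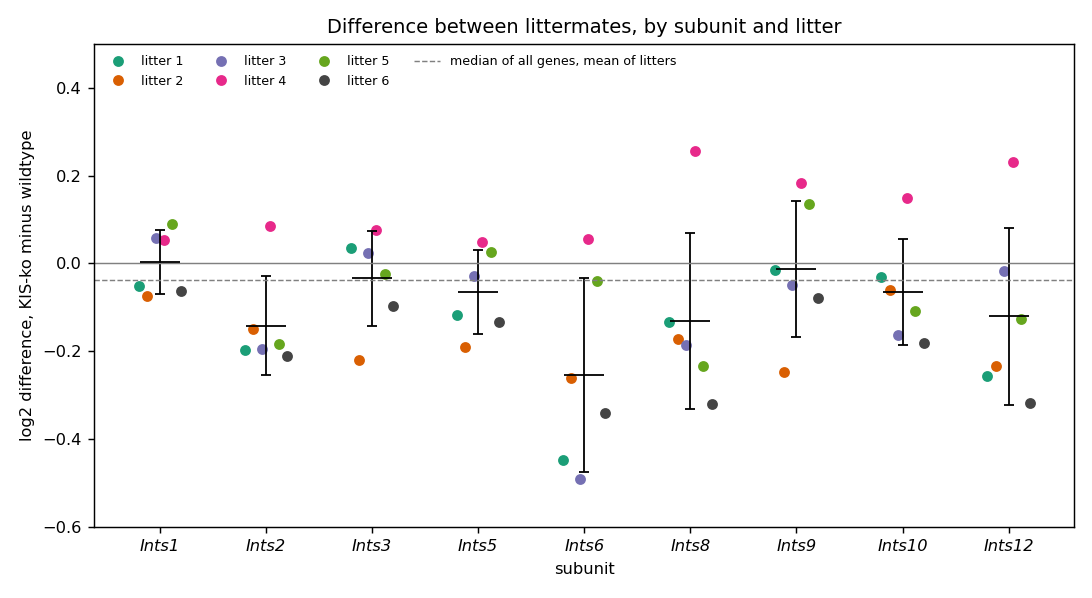
Log2 difference of the gene value, KIS-ko minus wildtype, for each subunit and litter; horizontal bars and whiskers are the mean and SD of the 6 litters, and the dashed line is the mean over litters of the median of all genes. Points of litter 4 lie above 0 for all 9 subunits, and Ints6 has the lowest mean, at -0.25.

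Taken litter by litter, most subunits shared the direction of their litter. In litters 2 and 6 all 9 were lower in KIS-ko, in litter 1 there were 8, in litter 3 there were 7 and in litter 5 there were 6, whereas in litter 4 none was. The mean of the 8 subunits other than Ints6 was -0.096, -0.17, -0.070, 0.14, -0.053 and -0.18 in litters 1 to 6. Its sign was that of the median gene in every litter but litter 3, where the median gene stood at 0.0023. The part of this array-wide shift in the values of the subunits was not tested beyond the centred values given here.

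Ints6 lay below the mean of the other 8 by a log2 difference of -0.35, -0.092, -0.42, -0.080 and -0.17 in litters 1, 2, 3, 4 and 6, and above it by 0.013 in litter 5. The mean gap was -0.18 ± 0.17 (SD, n = 6 pairs). In litters 1, 2, 3 and 6 the reduction of Ints6 exceeded that of each of the other 8 subunits. In litter 4, where all 9 were higher, the difference of 6 of the 8 lay above that of Ints6, and in litter 5 that of 4 of the 8 did. The gap was thus widest in litters 1 and 3, and litters 2 and 6, in which every subunit was lower, had a smaller one.

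Litter 4 was the one in which all 9 subunits were higher, and leaving it out changed the counts. Without it all 9 subunits were lower, as they also were without litter 3 or without litter 5, where Ints1 turned to -0.0085 and -0.015. Without litter 4 the 9 had a median difference of -0.11, and Ints6 stood at -0.32 ± 0.18 (SD, n = 5 pairs). Ints2, Ints8, Ints10 and Ints12 then had an unadjusted p under 0.05, with differences of -0.19 ± 0.042, -0.21 ± 0.046, -0.11 ± 0.045 and -0.19 ± 0.055 (SE, limma). The share of all genes this low in the same direction was then 19.4%, and the lowest adjusted p of the 8 was 0.107. Litter 4 was singled out by the direction of these same subunits, so these p-values are a description. Without litter 2 Ints2 alone of the 8 had an unadjusted p under 0.05, and without litter 1, 3, 5 or 6 none had. The gap between Ints6 and the mean of the other 8 was -0.20 ± 0.18 (SD, n = 5 pairs) without litter 4.

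The probesets of Ints6 show where along the transcript the lower signal lay. Of its 25 main probesets, 24 were kept and 1 at the 5′ end was rejected because its relative SD exceeded 0.4. Of the 24, 23 were lower in KIS-ko, with a median difference of -0.24 and a range from -0.42 to 0.0098, whereas 66.2% of all probesets were lower. The 9 bright probesets were all lower, with a median of -0.27, and the 15 dimmer ones had a median of -0.23. The brightest, number 13 from the 5′ end, had signals of 1695, 1698, 1867, 1762, 1511 and 1921 in wildtype and 1382, 1475, 1206, 1721, 1617 and 1577 in KIS-ko, in litters 1 to 6. In this exon too litters 1, 2, 3 and 6 were lower, litter 4 was nearly level and litter 5 was higher.

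The 2 probesets at the 3′ end, numbers 23 and 24, had mean signals of 139 and 84.6, near the median of 114 of the intron controls, and differences of -0.095 and 0.0098. Probeset 1, at the 5′ end, stood at -0.073, and the 21 between them all lay at -0.18 or below. Probeset 8 had the largest reduction, from 909, 813, 618, 1155, 645 and 905 in wildtype to 511, 653, 522, 850, 501 and 681 in KIS-ko, but it rests on 1 probe. It was lower in all 6 litters. By litter, 22, 23, 24, 10, 13 and 21 of the 24 Ints6 probesets were lower, beside 58.8%, 64.1%, 51.9%, 36.4%, 57.8% and 69.3% of all probesets, so that the litters in which the gene value hardly differed were those in which the probesets were split.

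**Figure D3:**
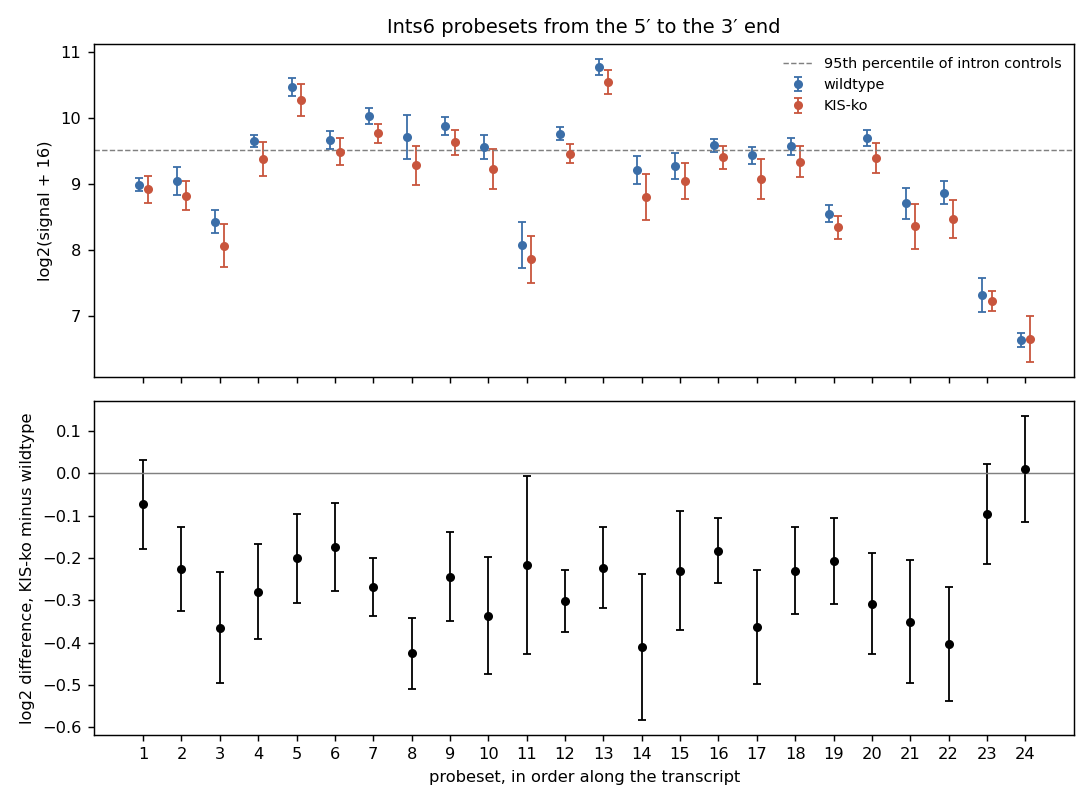
Upper panel, log2(signal + 16) of the 24 Ints6 probesets kept, in order from the 5′ to the 3′ end, as mean and SD of 6 brains per genotype, with the 95th percentile of the intron controls as a dashed line; lower panel, log2 difference KIS-ko minus wildtype with its SE from limma. Probesets 2 to 22 lie between -0.18 and -0.42, and the 2 dim probesets at the 3′ end lie near 0.

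The probesets of the other subunits were more divided. Of the 211 kept, 152 were lower, with a median difference of -0.043 against -0.040 for all probesets. An unadjusted p under 0.05 was found for 12 in the lower and 3 in the higher direction, where 4.72% and 1.91% of all probesets were called, and none passed adjustment, as 0.00487% of all probesets did (limma, lowest adjusted p = 0.582). Ints2 had 26 of 27 probesets lower, Ints8 27 of 30 and Ints12 10 of 10. A single one of the Ints8 probesets lies on the plus strand, opposite to the rest, at -0.056, and it is counted here and in the gene value. Ints1 had 27 of 54 and Ints3 had 28 of 40. The 27 of Ints1 include a probeset without signal, with a mean of 0.00014 and a difference of -6.6e-08.

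Of the 12 probesets, 6 belonged to Ints2, and their differences ran from -0.45 to -0.21. Among these, the second probeset from the 5′ end had a mean signal of 190 and the most negative difference, -0.45 ± 0.090 (SE, limma, adjusted p = 0.598), and was lower in all 6 litters. Ints8 had 3 and Ints3, Ints10 and Ints12 had 1 each. The 3 higher ones lay in Ints1, Ints3 and Ints9.

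**Figure D4:**
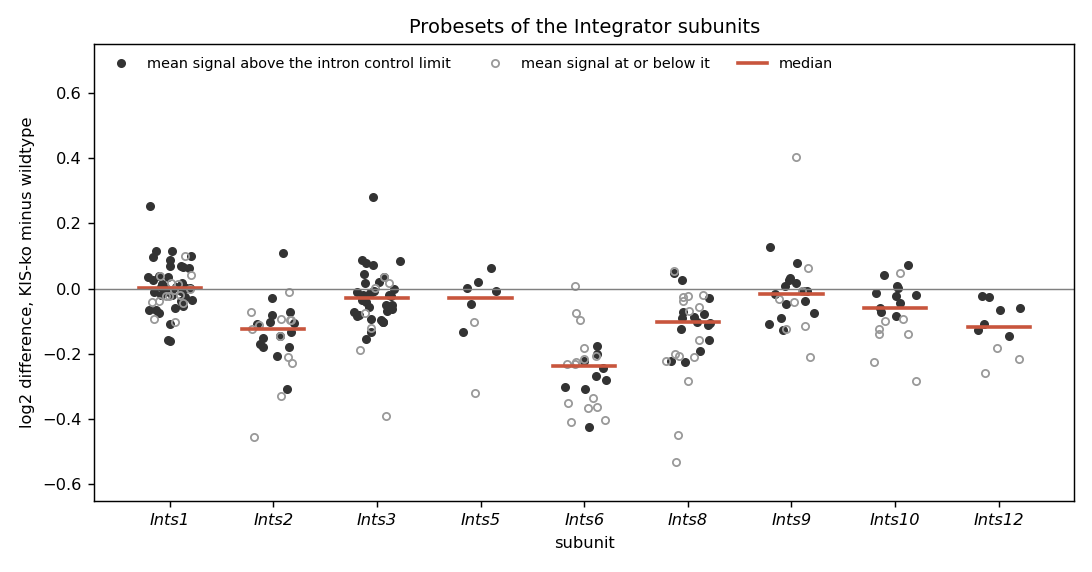
Log2 difference, KIS-ko minus wildtype, of every probeset kept for the 9 subunits; filled points have a mean signal above the intron control limit of 713, open points do not, and red lines are medians. Ints6 probesets centre on -0.24 and those of Ints1 on 0.00075.

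Whether a probeset left the pattern of its gene was read from the splicing index, the log2 value of a probeset minus the mean of the other probesets of the gene. Of the 211 probesets of the other 8 subunits, 9 had an unadjusted p under 0.05, where 6.09% of all probesets did, and none passed adjustment, as 0.000985% of all probesets did. Without litter 4 the number was 26 of 210, where 12.3% of all probesets had such a p, and again none passed adjustment. With all litters the lowest adjusted p was 0.273 (limma), for an Ints9 probeset near the 3′ end at 65658242 to 65658267 of chromosome 14 in the array table. It has 2 probes and a mean signal of 164, was higher in KIS-ko in all 6 litters, and differed from the rest of Ints9 by 0.43 ± 0.052 (SE). Without the litter block its adjusted p was 0.0113, a setting in which 0.00887% of all probesets passed, 18 in place of 2. With limma's diffSplice, which pools the variance within a gene, it was 0.0365, where 0.188% of all probesets passed. The Simes test of diffSplice over the whole gene did not call Ints9 (adjusted p = 0.0580), where 1.86% of genes, 290 in all, passed. At the 3′ end of Ints3 a dim and a bright probeset went opposite ways against their gene, by -0.36 ± 0.10 and 0.32 ± 0.10 (SE, limma, adjusted p = 0.732 and 0.766).

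The further genes of Integrator and of SOSS comprised 9 genes, of which 8 were measured and Inip was not matched. All 8 were lower in KIS-ko, with a median difference of -0.11, and 7 of them were lower than the median gene, beside 69.8% of all genes lower. The median was -0.067 without litter 6, -0.053 with arrays centred on their medians and -0.061 after a second quantile normalization. In this list 2 genes had an unadjusted p under 0.05 in the lower direction, as had 4.34% of all genes. Ints7, a backbone subunit, lay between 9.90 and 10.19, median 10.14, in wildtype and between 9.81 and 10.00, median 9.93, in KIS-ko. Its difference of -0.18 ± 0.064 (SE, limma, adjusted p = 0.685) was one of them, and litter 4 was the single litter higher. Its unadjusted p was above 0.05 without litter 1 or 6 and with the median over probesets. Obfc2a, now Nabp1, a single-strand DNA binding protein of SOSS, was the other one, at -0.18 ± 0.067 (SE, limma, adjusted p = 0.685), with a median probeset signal of 155 that is close to the intron controls. With a relative SD limit of 0.2 it stood at -0.053 ± 0.055 (SE) and with the median over probesets at -0.31, and its unadjusted p was above 0.05 at that limit and without litter 2 or 6, the latter giving -0.12.

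Ddx26b, now Ints6l, is the paralogue of Ints6. It lay between 9.79 and 10.04, median 9.87, in wildtype and between 9.57 and 10.01, median 9.76, in KIS-ko, with littermate differences of -0.054, -0.24, -0.26, 0.22, -0.23 and -0.19. The mean was -0.13 ± 0.067 (SE, limma, adjusted p = 0.685), so that no opposite difference to that of Ints6 was seen. It was -0.19 without litter 4 and -0.070 with arrays centred on their medians. Of the 2 litters with the largest reductions of Ints6, litter 1 had the smallest negative difference of Ddx26b. Litter 3 had the most negative one, at -0.26.

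Ints4, which holds the endonuclease, differed by -0.11 ± 0.064, and 4933424B01Rik, now Ints13, by -0.11 ± 0.056 (SE, limma, adjusted p = 0.685 for both). With arrays centred on their medians they stood at -0.057 and -0.050. Without litter 6, with the probesets chosen again on the remaining arrays, they stood at -0.068 and -0.065. Without litter 2 Ints4 stood likewise at -0.073. Cpsf3l, now Ints11, is the endonuclease itself and differed by -0.049 ± 0.061 (SE, limma, adjusted p = 0.768), and leaving out 1 litter moved it from -0.086 without litter 4 to -0.000019 without litter 2. 2010321M09Rik, now Ints14, stood at -0.038 ± 0.050 and Obfc2b, now Nabp2, at -0.019 ± 0.053 (SE, limma, adjusted p = 0.782 and 0.897), and the former ran from -0.069 without litter 4 to -0.014 without litter 2. With arrays centred on their medians these 3 turned to 0.0070, 0.018 and 0.037, and Ints3 and Ints9 to 0.022 and 0.044.

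The lists around Integrator gave medians closer to 0 than the further Integrator genes, and their counts of lower genes stand beside 69.8% of all genes lower. The PP2A core had all 3 of its measured genes lower (Ppp2cb was not matched), the scaffolds Ppp2r1a at -0.037 and Ppp2r1b at -0.070 and the catalytic Ppp2ca at -0.062. RNA polymerase II subunits had 9 of 10 lower with a median of -0.046, and the largest difference was that of Polr2k at -0.11, which rests on 1 probeset. Relative to the median gene 6 of these 10 were lower, with a median of -0.0097. Pausing and elongation factors had 15 of 16 lower with a median of -0.041, led by Mepce, the capping enzyme of the 7SK RNA, at -0.16. Below the median gene lay 12 of these 16, with a median of -0.0048 relative to it. None of these genes had an unadjusted p under 0.05.

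Factors of snRNA promoters had 8 of 9 lower with a median of -0.059, led by Narg2, now Ice2, at -0.15. Proteins of snRNA export and snRNP assembly had 15 of 17 lower with a median of -0.091, led by Sip1, now Gemin2, at -0.14, and no gene of either list had an unadjusted p under 0.05. Factors of mRNA 3′ end cleavage had 16 of 17 lower with a median of -0.043, and relative to the median gene 10 of 17 with a median of -0.0070. Cstf3, a subunit of the cleavage stimulation factor, was the single gene there with an unadjusted p under 0.05, at -0.17 ± 0.064 (SE, limma, adjusted p = 0.685), beside 4.34% of all genes, and its unadjusted p was above 0.05 without litter 1, 3, 5 or 6 and with the median over probesets, while without litter 4 it stood at -0.26. No gene of any of these lists passed adjustment, and Ints6 had a more negative difference than every gene in them.

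**Figure D5:**
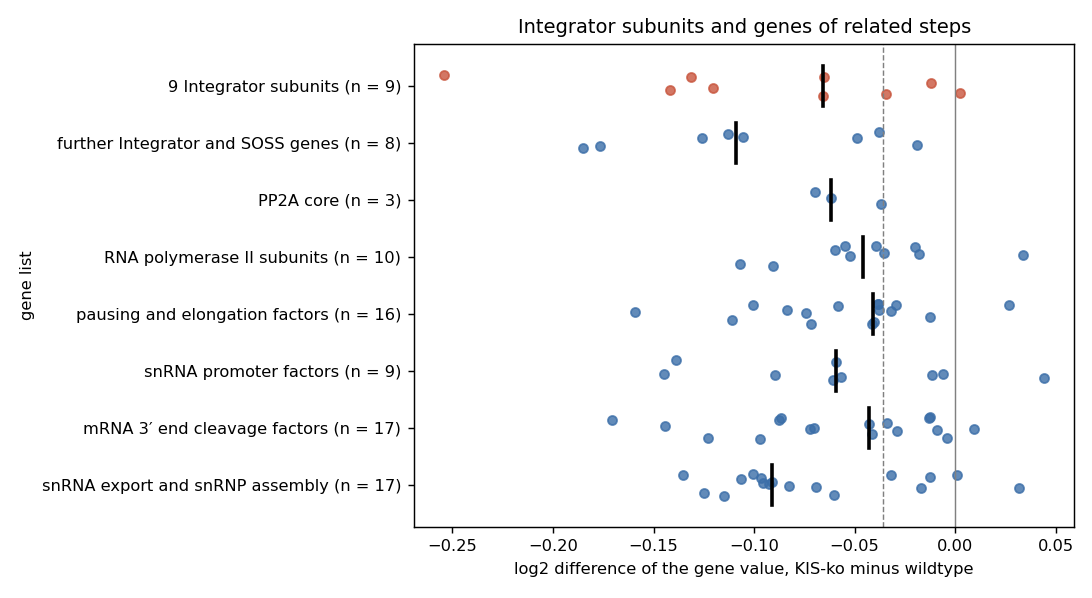
Log2 difference of the gene value, KIS-ko minus wildtype, for the 9 Integrator subunits and for 7 lists of related genes; each point is a gene, black bars are list medians and the dashed line is the median of all genes at -0.036. List medians lie between -0.11 and -0.041, and Ints6 is the leftmost point at -0.25.

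The genes beside Ints6 on chromosome 14 were examined as well. Within 1000000 bases of its probesets the table holds 12 other genes, of which 7 were lower in KIS-ko, beside 69.8% of all genes, and none had an unadjusted p under 0.05, as 4.34% of all genes had in the lower and 1.82% in the higher direction. Their differences ran from -0.099 for Ctsb, a lysosomal protease, to 0.085 for Fdft1, the squalene synthase. Wdfy2, the next gene on one side, stood at -0.049 ± 0.057 (SE, limma, adjusted p = 0.757), and Gucy1b2, the next on the other, at 0.028 ± 0.051 (SE, limma, adjusted p = 0.842). The remaining ones were Dleu7, Rnaseh2b, Neil2, Gata4, Blk, Fam167a, Tdh and Mtmr9. Gucy1b2, Tdh, Blk and Neil2 had median probeset signals from 97.1 to 135, near the intron controls.

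The likeness of the 9 patterns was described by Pearson's r of gene values centred on the array median, over 12 arrays that share their litters and array-wide shifts. The 36 pairs of subunits had a median r of -0.048, with 16 pairs above 0, and within the 6 wildtype arrays a median of -0.13. The highest was Ints3 with Ints9 at 0.72, and 0.98 within wildtype, where litter 5 was low for both. The lowest was Ints1 with Ints2 at -0.65. Ints6 was most like Ints12 at 0.66 and Ints2 at 0.64, although within the 6 wildtype arrays these were -0.43 and 0.20.

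Among 6052 genes with at least 4 probesets and a median probeset signal above the intron control limit, the 5 whose centred values over the 12 arrays were most like Ints6 were Vprbp with r of 0.921, 4732471D19Rik with 0.914, and Iars, N4bp1 and Usp21 with 0.908 each. Their differences between the genotypes ran from -0.24 for Usp21 to -0.14 for Iars. Within the 6 wildtype arrays their r with Ints6 was -0.19, 0.38, 0.61, 0.29 and 0.35, in the same order. Genotype and litter were not separated in the r over 12 arrays.

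Markers of cell types were set beside these values. The 5 markers of dividing cells, among them Top2a and Mki67, were all lower in KIS-ko, with a median difference of -0.12, and their summed signal ran from 2617 to 3303 in wildtype and from 2513 to 3055 in KIS-ko. Only 1 of these 5 had a median signal above the intron control limit. The 7 markers of astrocytes and radial glia were all lower too, with a median of -0.086, beside 69.8% of all genes that were lower, and sums from 25504 to 29149 and from 24170 to 27585, and Gfap alone had an unadjusted p under 0.05, at -0.27 ± 0.081 (SE, limma, adjusted p = 0.685), as 4.34% of all genes did in that direction. The 7 neuronal markers had a median of -0.026 and sums from 42654 to 46433 and from 42961 to 45591. The 6 other lists had medians from -0.042 for endothelium to 0.017 for erythroid cells, and none of the 5 microglial markers was above the intron control limit. The ranges of the groups overlapped in every list, and the part of cell composition in the Integrator values was not tested.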

How the data were processed

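Total RNA from 12 newborn brains was measured on 12 exon arrays. The authors used the Affymetrix Expression Console, quantile normalization at the exon level and PLIER. The intensity that the authors deposited is the PLIER signal of each probeset on the linear scale. The build of the array table is not given in the sources used here. Main probesets with a symbol and a relative SD of at most 0.4 in both genotypes were kept, 205469 of 221417. Whenever a litter was left out, this filter was applied again to the remaining arrays, so that the probesets kept could change too. No further normalization was applied. Gene values, the mean over probesets of log2(signal + 16), were fitted on genotype and litter with limma 3.58.1 (R 4.3.3), and the two-sided p-values were adjusted after Benjamini and Hochberg over all 17279 genes, with a threshold of 0.05. Single probesets, and splicing indexes in genes with at least 3 probesets, were tested likewise over all probesets. The script was tested on simulated data.

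The labels give each pair its litter, which is the source of the pairing. After subtraction of the genotype means, littermates correlated at 0.27, -0.059, 0.14, -0.11, 0.47 and -0.11 in litters 1 to 6. Their mean was 0.10, against a mean of -0.019 between litters, and litters 2, 4 and 6 lay below the latter. Array correlations were between 0.978 and 0.992, and no 2 arrays were identical. The number of arrays and the signal over the 5222 intron controls limit precision, and 44.6% of kept probesets were above the 95th percentile of these. The members and lists were chosen with earlier results of these data known. Named genes were all subunits, the further Integrator and PP2A genes, Uhmk1, from each other list the genes at an unadjusted p under 0.05 or else the largest difference, the neighbours of Ints6 and the 5 genes most like it. Promoters were read from RefSeq (GRCm38.p6) with Python 3.11.15 and pandas 2.3.3, and plots drawn with matplotlib 3.10.9.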

Additional observations from a re-analysis of the deposited data

Results flagged for a closer look

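Gene values of the 9 subunits in each genotype and their littermate differences, with the gap between Ints6 and the others, were searched for a brain or litter far from the other 5. Of 28 groups of 6 values, 5 held one, and chance marks about 1 in 20 groups that are independent. These groups share arrays, and the differences are made from the values, so no excess is read from the 5. Litter 4 gave 3 of them: the difference of Ints2 was 0.085 there and that of Ints8 0.26, while the other 5 litters were below 0 for both, and the KIS-ko brain of litter 4 had an Ints12 value of 10.25. The wildtype brain of litter 5 gave the others, with low values of Ints3, 9.94, and Ints9, 9.64. The KIS-ko brain of the same litter was also the lowest of its group for Ints3.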

How the results depend on the processing

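Ints6 had the lowest difference of the 9 subunits under all 17 alternatives, from -0.32 to -0.20, and stood below the mean of the other 8 by -0.23 to -0.14. It was chosen for its reduction on these same arrays, so neither is separate support for that reduction. The median of the 9 ran from -0.11 to -0.0098, and between 6 and 9 were lower. Without the litter block 1 gene passed adjustment and 1017 an unadjusted p under 0.05, against 1 and 1065 with it, and the splicing index called 18 probesets in all against 2, with 1 of the other subunits instead of 0 (the Ints9 probeset, which diffSplice also called, 1 in place of 0) and 13 of these at an unadjusted p under 0.05 instead of 9. The adjusted calls of the 8 subunits as genes stayed at 0. The methods' t-test, a paired one that they name for Q-PCR and not for the arrays, called 751 genes unadjusted and 1 adjusted. The number of genes past adjustment was 2 with a pseudocount of 64, with no relative SD filter and with trend and robust moderation, and 5 with a relative SD limit of 0.2 and with probesets above the intron controls only, which left 644 genes at an unadjusted p under 0.05 among 11425 genes. Leaving out 1 litter gave 1 to 4 adjusted and 579 (without litter 6) to 4017 (without litter 4) unadjusted genes, and Ints2 kept an unadjusted p under 0.05 without litter 2 or 4 but not without 1, 3, 5 or 6. It kept it under the other 11 alternatives. Litters also decided the unadjusted calls of Ints7, Obfc2a and Cstf3, as given beside them.

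Centring turned Ints3 to 0.022, Ints9 to 0.044, Cpsf3l to 0.0070, Obfc2b to 0.037 and 2010321M09Rik to 0.018, and left 37.7% of genes lower. A second quantile normalization turned Ints3 to 0.0011, Ints9 to 0.027, Obfc2b to 0.011 and 2010321M09Rik to 0.0053, with 48.6% of genes lower. Ints1 was 0.058 after the former and 0.043 after the latter. It turned to -0.00074 with the median over probesets and to -0.0014 with probesets of 1 place. Leaving out 1 litter, Ints1 ran from -0.015 to 0.018, Ints3 from -0.054 to 0.0028, Ints9 from -0.051 to 0.035 and Obfc2b from -0.054 to 0.011. Obfc2a had no value above the intron controls. The causes were not tested. Dim probesets, as in Obfc2a, limit what depth of signal can show.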
